A study of Hylyphantes graminicola with 5 samples.

Results

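NTL (evm.TU.CTG-1364.61) is the precursor of the natalisin type in the spider *Hylyphantes graminicola*. It was taken by its identifier from the list of neuropeptide precursors that the study compiled for this species, and is 1 of 71 precursors in that list and 1 of 19195 genes counted. It was chosen by its UMI counts in these libraries, with results of the data already known, so its levels across cells, classes and clusters are given as a description and without a test. The comparisons of NTL between the sexes use the same counts and are no independent evidence.

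Neuropeptides are made as longer precursors that are cut in the secretory pathway, packed into dense-core vesicles and released to act on G protein-coupled receptors. Natalisins are arthropod neuropeptides related in sequence to the tachykinins, and the tachykinin precursor of the same list is TK. In insects such as *Drosophila*, the silk moth and the flour beetle, natalisin is made by a small set of brain neurons and takes part in mating behaviour and fecundity. What it does in a spider is not part of these data.

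Brains were dissected from adults of this web-building spider, dissociated into cells and captured in droplets with a kit that tags the 3′ end of each transcript, so that a unique molecular identifier (UMI) marks each captured molecule once. There were 3 female and 2 male libraries, and the labels give sex and a replicate number but no genotype, treatment, mating status, line or batch. Each library was made from a pool of brains of mixed age, so that individual animals cannot be told apart and the spread between libraries is a spread between pools. The labels do not say how many collections the pools came from, and no claim of independent cultures or litters is made for them.

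After filtering, 31145 of 40233 deposited barcodes were kept, with 3296 to 8139 cells and 11353727 to 34543696 UMIs a library. Female replicate 2 and male replicate 2 kept 64.8% and 64.1% of their barcodes, against 85.6% to 93.7% in the other libraries, and their kept cells had the highest median mitochondrial shares, 28.9% and 26.4%. Between 5 and 15 cell barcodes were shared by any pair of libraries. The cells fell into 41 clusters, of which 27 with 28491 cells were called neuron-like, with *elav*, a neuronal RNA-binding protein of *Drosophila*, at 1134 ± 134 CPM (UMIs of the gene for each 1000000 UMIs of the same cells; SD, n = 5 libraries). The other named clusters were glia-like (628 cells), hemocyte-like (1113 cells) and fat body-like (203 cells), and 710 cells stayed unnamed.

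NTL was detected in all 5 libraries. Its level was 1377 CPM in female replicate 1, 837 in female replicate 2, 1500 in female replicate 3, 1991 in male replicate 1 and 1347 in male replicate 2. Male replicate 1 was the highest and female replicate 2 the lowest, and the other male library lay between the female ones. The mean was 1410 ± 412 CPM (SD, n = 5). Counted over all kept cells, 176624 NTL UMIs placed it 14th of the 71 precursors. Within single libraries it ranked 10th at best, in male replicate 1, and 19th in female replicate 2. Among all genes it stood between 44th and 132nd.

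The precursors next to it in this order were *RYa_3*, an RYamide precursor, at 1689 ± 444 CPM, *NPF*, the neuropeptide F precursor, at 1432 ± 290 CPM, and *FMRFa_3*, an FMRFamide precursor, at 1232 ± 418 CPM. By mean CPM the closest was *Calcitonin_2*, at 1422 ± 1247 CPM. None of these means lies further from NTL than the SD of NTL, so these libraries do not fix its place among them. *Proc*, the proctolin precursor, led the list at 9940 ± 830 CPM.

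NTL was carried by a small part of the cells. At least 1 NTL UMI was found in 5727 cells, 18.4% of all, and in 15.3%, 15.6% and 18.1% of cells in the female and 24.3% and 16.3% in the male libraries. Of these cells 2004 held a single UMI and 1592 held 2 to 9. The remaining 2131 cells, 6.84% of all, held 10 or more and are called NTL-high here. They were 6.19%, 4.45% and 7.28% of the cells in the female and 8.73% and 6.41% in the male libraries.

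These NTL-high cells held 95.04% of all NTL UMIs, between 87.7% in female replicate 2 and 96.1% in female replicate 3. The 1% of cells with most NTL held 49.7% to 52.2% of it in each library. An NTL-high cell had a median of 35 NTL UMIs, which was 1.03% of all its UMIs, and in the most extreme cell NTL made up 29.1%. At least 100 NTL UMIs were counted in 21 to 164 cells of each library, and the highest count in a cell was 1278, in male replicate 1. NTL was spread over many cells for its total, and so was *EFLa*, the EFLamide precursor, which reached 10 UMIs in 2128 cells. Other precursors with a similar number of UMIs did so in fewer cells, *FMRFa_3* in 1433, *RYa_3* in 811 and *NPF* in 143.

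**Figure D1:**
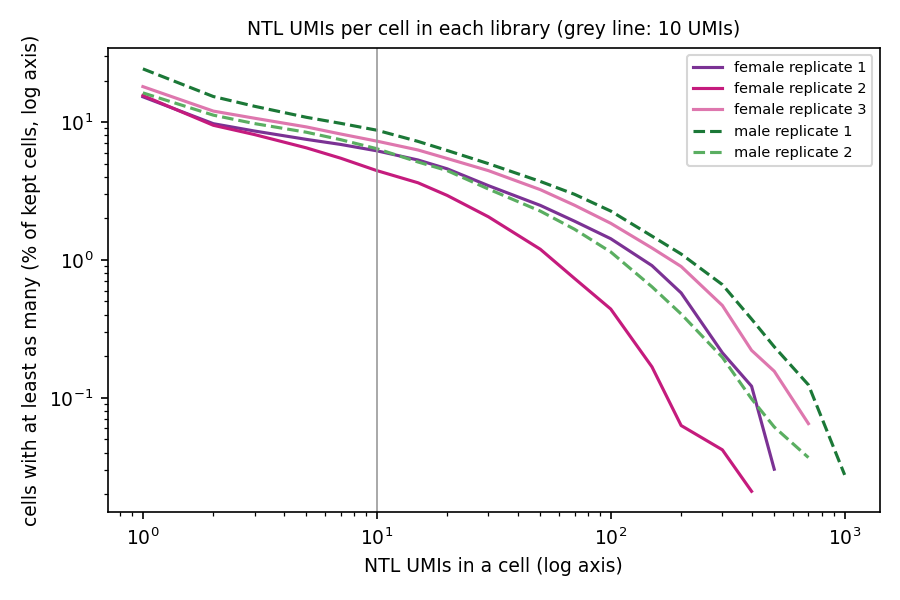
Percent of the kept cells of each library (log axis) that held at least the number of NTL UMIs on the horizontal axis (log axis), with solid lines for female and dashed lines for male libraries and a vertical line at 10 UMIs. From 1 to 100 UMIs the curve falls from 15.6% to 0.441% in female replicate 2 and from 24.3% to 2.26% in male replicate 1, which has the longest tail, to 1278 UMIs.

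NTL lay mainly in neuron-like cells, which were 91.5% of all kept cells. Of the 2131 NTL-high cells 2065 lay in neuron-like clusters and 66 elsewhere: 17 in glia-like, 4 in hemocyte-like, 6 in fat body-like and 39 in unnamed clusters. NTL-high cells were 7.25% of neuron-like, 5.49% of unnamed, 2.96% of fat body-like, 2.71% of glia-like and 0.359% of hemocyte-like cells. Summed per library, neuron-like cells had 1396.6, 898 and 1600 CPM in the female and 2033 and 1406 CPM in the male libraries, a mean of 1467 ± 409 (SD, n = 5). The unnamed clusters, which include a shallow cluster led by NTL, had 1613 ± 1400 CPM, and 20.6% of their cells had an NTL UMI. Glia-like cells reached 584 ± 458 CPM and fat body-like cells 151.0 ± 247 CPM, the latter from as few as 3 cells in a library.

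Hemocyte-like cells, which should not make a neuropeptide, give the background. Their NTL level was 0, 21.5 and 19.1 CPM in the female libraries and 718 and 239 CPM in the male ones. The neuron-like level was at least 42.2-fold higher in female replicate 1, where none was counted and a floor of 3 UMIs in that library was used, and 41.8-fold, 83.6-fold, 2.83-fold and 5.87-fold higher in the other libraries in the same order. On the log2 scale the ratio was 4.25 ± 2.10 (SD, n = 5, with the floor in 1 library).

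The male values rest on very few cells. Only 4 hemocyte-like cells were NTL-high, they held 325 of the 390 NTL UMIs of that class, and all 4 were among the cells scored as doublets, with a score of 0.94 or more against a median of 0.54. Without cells scored as doublets the log2 ratio was 5.41 to 7.18 in the 5 libraries. By cells, 4.22% of hemocyte-like cells had an NTL UMI (exact 95% interval 3.12% to 5.58%; median 2125 UMIs a cell) against 19.1% of neuron-like cells (18.7% to 19.6%; median 2728 UMIs). With every cell thinned to 2000 UMIs, which left out 531 hemocyte-like and 9282 neuron-like cells, the shares were 3.26% and 16.7%. Intervals cover counting error only.

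**Figure D2:**
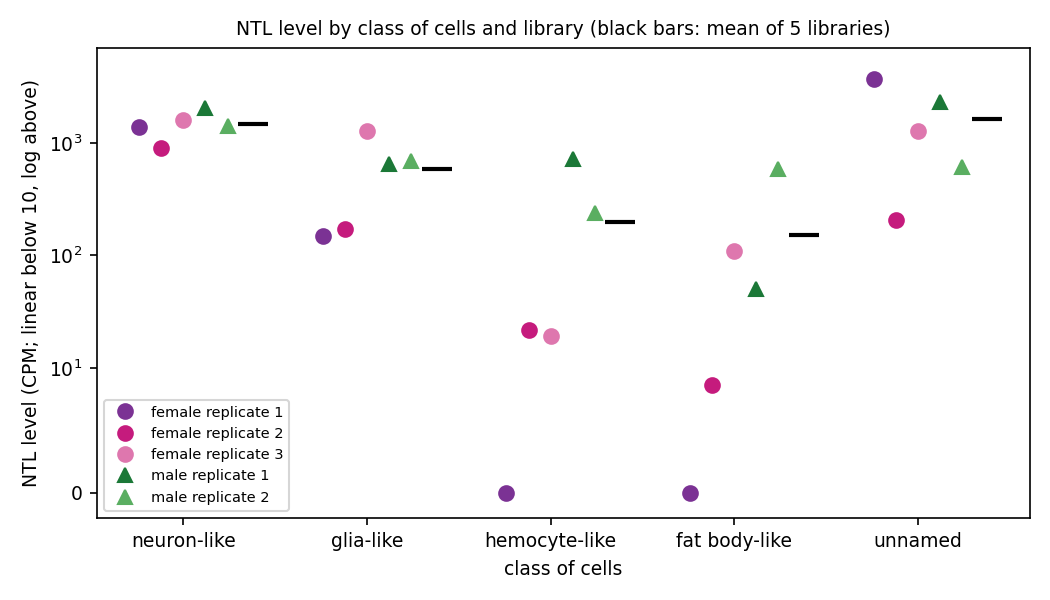
NTL level (CPM, linear below 10 and log above) in each class of cells, with a circle for each female and a triangle for each male library and a black bar at the mean of the 5 libraries. Neuron-like cells sit between 898 and 2033 CPM in every library, whereas hemocyte-like cells run from 0 to 718 CPM.

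Within the neuron-like clusters NTL did not mark one cluster alone. The clusters were built from the same counts, with the 71 precursors, NTL included, left out of the genes that set them. NTL was still among the leading genes of clusters 3, 12 and 21, and cluster levels are a description. All 26 neuron-like clusters of at least 30 cells had NTL-high cells, and 24 had 10 or more of them. Cluster means ran from 132 ± 69 CPM in cluster 14 to 3811 ± 2257 CPM in cluster 12. Next below cluster 12 came cluster 3 at 3179 ± 945, cluster 7 at 2880 ± 1312 and cluster 11 at 2479 ± 1700 CPM (SD, n = 5 libraries each). Cluster 1, one of the largest with 2518 cells, was low in every library, at 261 ± 54 CPM. An unnamed cluster of 356 shallow cells, cluster 21, had the highest mean of all, 4064 ± 3633 CPM, and ranged from 0 to 9254 CPM between libraries.

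No pair of neighbours in the order of 39 clusters, 38 pairs in all, differed by more than the larger of their SDs. Clusters further apart in the order did separate: the lowest library of cluster 3 was at 2026 CPM and that of cluster 16 at 1321 CPM, while cluster 1 did not exceed 300.3 CPM, nor cluster 14 212 CPM, in any library. Levels and shares of cells did not give the same leader. Cluster 8 had the largest share of NTL-high cells, 24.1% (18.5% to 27.1% between libraries), and held 361 of them, 16.9% of all NTL-high cells, at 2205 ± 1094 CPM. Its cells were deep, with a median of 7935 UMIs, and 29.2% of them were scored as doublets. Cluster 17, in which the GABA enzyme gene *Gad1* was a leading gene, came second by share, at 15.2%, with only 984 ± 544 CPM.

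**Figure D3:**
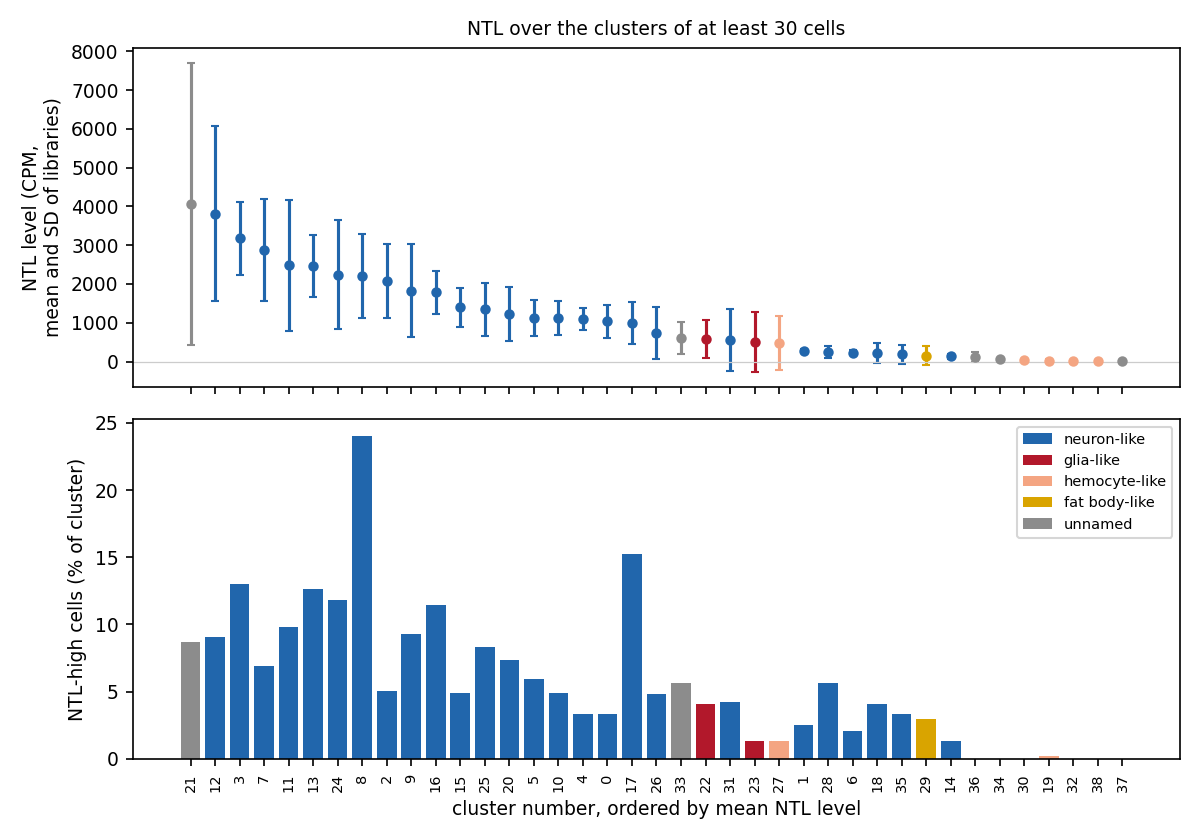
NTL level (CPM, mean and SD of libraries, upper panel) and NTL-high cells (percent of the cluster, lower panel) for the 39 clusters of at least 30 cells, ordered by level and coloured by class. Levels fall gradually from 4064 CPM in cluster 21, while the tallest bar of the lower panel is cluster 8 at 24.1%.

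The sexes were compared over libraries. The mean level was 1238 ± 353 CPM in females (n = 3) and 1669.1 ± 456 CPM in males (n = 2), and the ranges overlapped, since male replicate 2 lay below 2 of the 3 female libraries. The log2 ratio, female minus male, was -0.45 (SE 0.32) over all kept cells, with an adjusted p of 1.00 over all genes in edgeR's quasi-likelihood test. It was -0.43 (SE 0.31) in neuron-like cells, again with an edgeR adjusted p of 1.00. NTL-high cells made up 6.39%, 4.84% and 7.99% of neuron-like cells in the female and 8.96% and 6.78% in the male libraries. The means differed by -1.46 percentage points (two-sided exact permutation test, p = 0.40, where the smallest p possible is 0.1). With cells of at most 20% mitochondrial UMIs the difference was -2.26 points, with 7.61%, 9.19% and 9.42% in the female and 10.7% and 11.4% in the male libraries, which did not overlap (exact permutation p = 0.1, the smallest possible). With 3 against 2 pools these comparisons have little power: on simulated counts of the same depth, 48 of 100 genes changed by 2 on the log2 scale were recovered and 5 of 100 changed by 1.

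None of the other precursors was called between the sexes over all kept cells by edgeR, where 12 of the 69 tested had an unadjusted p under 0.05 and DESeq2 called 2. Over all genes edgeR called 3 of 13875 (0.0216%), with 331 at an unadjusted p under 0.05, and DESeq2 called 36. In neuron-like cells edgeR called 0 of the 67 precursors tested, with 12 at an unadjusted p under 0.05 and 4 called by DESeq2. Over all genes of neuron-like cells edgeR called 7 of 13444 (0.0521%), with 340 at an unadjusted p under 0.05, and DESeq2 called 44. The shares of cells with an NTL UMI after thinning to 2000 UMIs were 13.9%, 15.3% and 15.3% in the female libraries and 19.1% and 15.5% in the male ones, so that male replicate 1 stood highest also at equal depth.

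What else NTL-high neurons expressed was examined by setting them against the other neuron-like cells of the same library, 2065 against 26426 cells. The groups differed in quality measures. NTL-high cells had more UMIs (median 3878 against 2665, higher in 5 of 5 libraries) and a lower mitochondrial share (median 16.8% against 21.3%, lower in 5 of 5), and 10.8% of them against 5.37% were scored as doublets. The part of these differences in the results that follow was not tested, beyond the values given for thinned cells, for cells drawn from the same clusters and without doublets.

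Most NTL-high cells carried another precursor as well. Another precursor reached 10 UMIs in 69.9% of them and in 55.7% of the other neuron-like cells, and more than 1 other precursor did so in 47.17% against 28.4%, with the same direction in 5 of 5 libraries. These shares were taken at full depth with doublets kept, where NTL-high cells had more UMIs, and were not counted at equal depth. NTL was still the precursor with most UMIs in 51.7% of NTL-high cells. All precursors together made up a median of 3.84% of their UMIs against 0.98% in the others, and without NTL 1.65% against 0.96%.

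The most frequent companion was *DH31_1*, a precursor of the calcitonin-like diuretic hormone type, which in *Drosophila* acts on fluid secretion and on clock neurons. It reached 10 UMIs in 21.2%, 21.9% and 28.4% of NTL-high cells in the female and 29.6% and 20.6% in the male libraries, and in 9.17%, 9.54%, 11.0%, 11.1% and 9.82% of the other cells in the same order. The groups did not overlap. The 526 cells with both were 25.5% of NTL-high neuron-like cells and 16.2% of those with 10 *DH31_1* UMIs, and at 2000 UMIs a cell the shares were 18.4% against 9.46%.

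*EFLa*, the EFLamide precursor, reached 10 UMIs in 13.8% of NTL-high and 6.77% of other cells (thinned, 9.31% against 5.78%), and those 286 cells were 13.8% of all neuron-like cells with 10 *EFLa* UMIs. *Calcitonin_2* reached it in 7.85% against 3.68% (thinned, 5.57% against 2.99%) and *CCRFa_1* in 3.05% against 0.76% (thinned, 2.43% against 0.84%). These precursors were chosen for mention after their values were seen. Short neuropeptide F, *sNPF*, was found in 19.3% against 15.9%, and thinning turned this to 12.7% against 14.1%. Of the 70 other precursors, the share at 10 UMIs was higher in NTL-high cells for 42 and lower for 18, and after thinning it was higher for 25, lower for 32 and 0 in both groups for 13. Of these 32, 16 had no thinned NTL-high cell at 10 UMIs and at most 0.143% of the others, under the 0.178% that 0 of 1687 cells allows, so that a lower share was not detectable. Among the 15 precursors most frequent in NTL-high cells, the thinned share was higher for 13, with *sNPF* and *Mip* the exceptions. These 15 were picked by their share in NTL-high cells, which favours a higher share there, so this count is a description only.

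**Figure D4:**
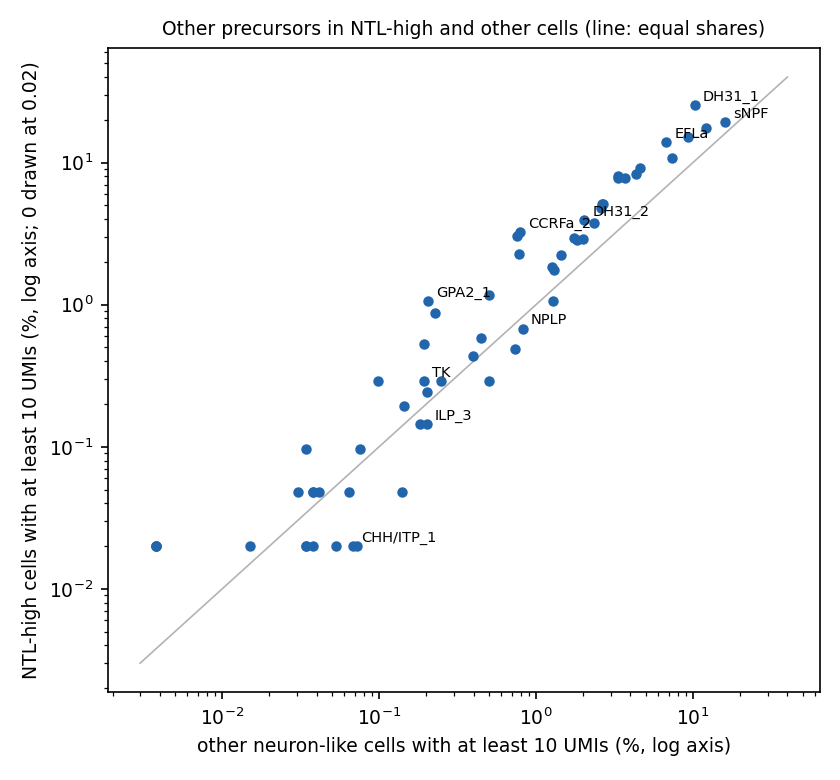
Percent of NTL-high cells against percent of other neuron-like cells in which each of the other precursors reached at least 10 UMIs (both axes logarithmic, shares of 0 drawn at the edge), with a line of equal shares. *DH31_1* lies at 25.5% against 10.3% and *EFLa* at 13.8% against 6.77%, above the line.

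Summed per library and tested with edgeR with library as a block, 35 of the 62 precursors with enough UMIs were called, 5 higher and 30 lower in NTL-high cells, against 1221 of 12071 genes (10.1%), 437 of them higher (3.62%) and 784 lower (6.49%). The median log2 difference was -0.56 over these precursors and -0.01 over all genes tested. Only 62 of the 70 could be tested, so these counts do not stand for the whole list. Of all genes, 811 were called without male replicate 1, 502 after thinning and 13 without the library block.

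*DH31_1* was higher by 0.78 on the log2 scale (SE 0.04, edgeR adjusted p = 1.17e-09). It had 6389, 5416 and 5806 CPM in NTL-high cells of the female and 6521 and 7548 CPM in those of the male libraries, against 3329, 3138, 3143, 3814 and 3664 CPM in the other cells. *GPA2_1*, a subunit gene of the glycoprotein hormone type, had the largest rise of the called precursors at 1.76 (SE 0.11, edgeR adjusted p = 2.98e-08). Its levels were low, 118, 105, 34.1, 17.3 and 146 CPM against 24.2, 33.5, 13.2, 3.64 and 38.0 CPM, with NTL-high cells above in each library. It reached 10 UMIs in 22 NTL-high cells.

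The other calls were less stable. *Calcitonin_2* was higher by 0.60, in 4 of 5 libraries, and was not called by DESeq2 (adjusted p = 0.16). *FMRFa_4* was higher by 0.40, in 4 of 5 libraries, and after thinning it was at -0.04 (edgeR adjusted p = 0.90). *ALP_2* was higher by 0.38, and was not called after thinning or within clusters (edgeR adjusted p = 0.19 and 0.18). *EFLa* had a log2 difference of 0.00 (SE 0.08) by sums although more NTL-high cells carried it. After thinning its sum was called lower in NTL-high cells, at -0.33 (edgeR adjusted p = 0.0133).

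Most of the precursors called lower had their UMIs in very few cells. In 22 of the 30, at most 20 cells held 50% of all neuron-like UMIs of the precursor. For *EH_2*, an eclosion hormone precursor (a hormone that triggers moulting behaviour in insects), it was 3 cells, and its sum fell by 5.40 on the log2 scale (SE 0.20). *CHH/ITP_1*, of the crustacean hyperglycaemic hormone and ion transport peptide type, fell by 6.95 with 50% of its UMIs in 4 cells. *Trissin* fell by 5.93, also with 4 cells. *CCAP_1* (crustacean cardioactive peptide), *DH31_2* and *EH_1* had log2 differences of -6.30, -4.26 and -4.87. Against cells of the same clusters *CCAP_1* was at -0.95 (edgeR adjusted p = 0.099) and *DH31_2* at -2.22 (edgeR adjusted p = 0.32), neither called. For *EH_1* a single cell held 2005 of its 2082 neuron-like UMIs, it was lower in 4 of 5 libraries, and DESeq2 did not call it (adjusted p = 0.26).

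Counted by cells at full depth, the direction was often the other one. For 17 of the 30 precursors called lower, a larger share of NTL-high than of other cells reached 10 UMIs. Over all 70 other precursors this held for 42 at full depth and for 25 after thinning, so it was not particular to those called lower. *DH31_2* did so in 3.97% against 2.03%, and *Elevenin_3*, whose sum fell by 1.73, in 2.91% (60 cells) against 2.00% (529 cells). After thinning *DH31_2* kept this direction, at 1.84% against 1.57%, while *Elevenin_3* turned to 1.36% against 1.82%. For 7 of the 30 no NTL-high cell reached 10 UMIs, and 0 of 2065 cells allows a share of up to 0.145%, above the share in the other cells for each of the 7, so that a lower share was not detectable at this number of cells.

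TK, the tachykinin precursor and nearest relative in the list, ranked 27th. It reached 10 UMIs in 60 kept cells, which held 96.1% of its UMIs, and the highest cell had 26551. Of these 60 cells 6 were NTL-high, 10% of the TK cells, where 6.84% of all kept cells were NTL-high, and 0.282% of the NTL-high cells. In neuron-like cells TK had 17.7, 28.0, 34.1, 12.4 and 19.5 CPM in NTL-high and 40.57, 936, 646, 1058 and 27.4 CPM in other cells. NTL-high cells were below in each library, and the log2 difference was -4.42 (SE 0.54, edgeR adjusted p = 4.07e-05). By cells, 0.291% of NTL-high (6 cells) and 0.193% of other neuron-like cells (51 cells) reached 10 TK UMIs. After thinning the shares were 0.0593% and 0.131%, so the direction at full depth was not kept. Both thinned shares lie under 0.178%, the share still allowed when no thinned NTL-high cell is counted, so they fix no direction. In neuron-like cells 2 cells held 50% of the TK UMIs, and after thinning the log2 difference of the sums was -2.50.

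Beyond the precursors, the genes with the smallest p among those higher in NTL-high cells were largely heat shock genes. *l(2)efl*, a small heat shock protein of *Drosophila*, had 10214, 6931, 3527, 3793 and 4254 CPM in NTL-high and 6736, 4013, 2354, 2291 and 2581 CPM in other cells. The levels of the libraries differ widely, but within each the NTL-high cells were above, by 0.58 on the log2 scale (SE 0.03, edgeR adjusted p = 5.95e-10). *Hsp67Ba* (0.48), *stv_S2*, whose *Drosophila* counterpart is a co-chaperone (0.62), *Hsp68* (0.47), *HSP74_S1* (0.51) and *HSP74_S5* (0.62) rose with it. Of 15 genes with heat shock or chaperone names 14 were called higher, against 3.62% of all genes, and 11 against other cells of the same clusters. That list was made after these values were seen, so its count is a description. All 17 mitochondrial genes tested were called lower, against 6.49% of all genes, and 4 of them in the same-cluster comparison. There 0.984% of all genes were called in either direction. These genes are part of the mitochondrial share given above, which was lower in NTL-high cells.

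*FGRL1_S2*, a fibroblast growth factor receptor-like gene, rose by 0.70 and *RGRF1*, a Ras guanine nucleotide exchange factor, by 0.58. The gene *acj6*, a POU transcription factor that sets neuron identity in *Drosophila*, had 68.5, 58.0, 63.8, 37.4 and 21.3 CPM in NTL-high cells against 36.9, 30.8, 29.1, 18.98 and 14.6 CPM. It rose by 0.84 (SE 0.09, edgeR adjusted p = 5.72e-06), and by 0.29 with an adjusted p of 0.30 within clusters. *Fer2*, the other identity factor of that list, was not called.

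Among the lower genes, *Cadps*, which primes dense-core vesicles for release, fell by 0.72 on the log2 scale, *Snap24*, a SNARE of vesicle fusion, by 0.65, *TBB1_S1*, a beta tubulin, by 0.76, and *Nckx30C_S3*, a sodium, potassium and calcium exchanger, by 1.00. Of 7 genes for peptide processing and release, 6 were called, against 10.1% of all genes, and 2 of the 6 that could be tested within clusters, *Cadps* and *CBPM_S1*, both lower. *Syt4* (0.14) and *Sytbeta* (0.30), both synaptotagmins, rose. *Cadps*, *Rab3_S2* (-0.41), the carboxypeptidase *CBPM_S1* (-0.70) and the furin *FUR11_S2* (-0.24) fell, and *svr* was not called. Among 4 neuron markers, 3 were called lower, against 6.49% of all genes, and within clusters 1, *elav*, which had log2 differences of -0.31 and -0.20. None of 5 glia, 5 hemocyte or 6 fat body markers tested was called by edgeR, with 1 in each list at an unadjusted p under 0.05.

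For transmitters, *VAChT*, the vesicular acetylcholine transporter, had a UMI in 16.3% of NTL-high, 8.21% of other neuron-like and 0.539% of hemocyte-like cells, and at 2000 UMIs in 7.65%, 5.205% and 0.344%. *Gad1* had one in 4.94%, 2.39% and 0.809% (thinned, 3.38%, 2.04% and 0.515%). The sums of neither were called, with log2 differences of 0.23 (edgeR adjusted p = 0.20) and 0.19 (edgeR adjusted p = 0.43), and within clusters they were -0.01 and -0.49. *Ddc*, the decarboxylase of dopamine and serotonin synthesis, fell by 0.66 on the log2 scale, and *Tdc2*, the tyrosine decarboxylase of octopamine synthesis, by 1.39 from levels of only 7.58 ± 3.91 CPM. *Tdc2* was lower in 4 of 5 libraries and lost its call after thinning (edgeR adjusted p = 0.10) and within clusters (-0.47, edgeR adjusted p = 0.88). Of 6 genes named for mushroom bodies 2 were called lower, *bsk* (-0.18) and *CG17221* (-0.35), against 6.49% of all genes. Neither kept its call within clusters (edgeR adjusted p = 0.95 and 0.72).

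Far fewer genes were called against cells of the same clusters. When the other cells were drawn from the library and cluster of each NTL-high cell, 105 of 10670 genes were called (0.984%), 50 higher and 55 lower. Of these, 99 were among the 1221 and none had turned direction. *DH31_1* was then higher by 0.50 (edgeR adjusted p = 5.72e-05), *GPA2_1* by 1.47 (edgeR adjusted p = 1.33e-05) and *l(2)efl* by 0.33 (edgeR adjusted p = 6.81e-06). The comparison was added after the data were seen.

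**Figure D5:**
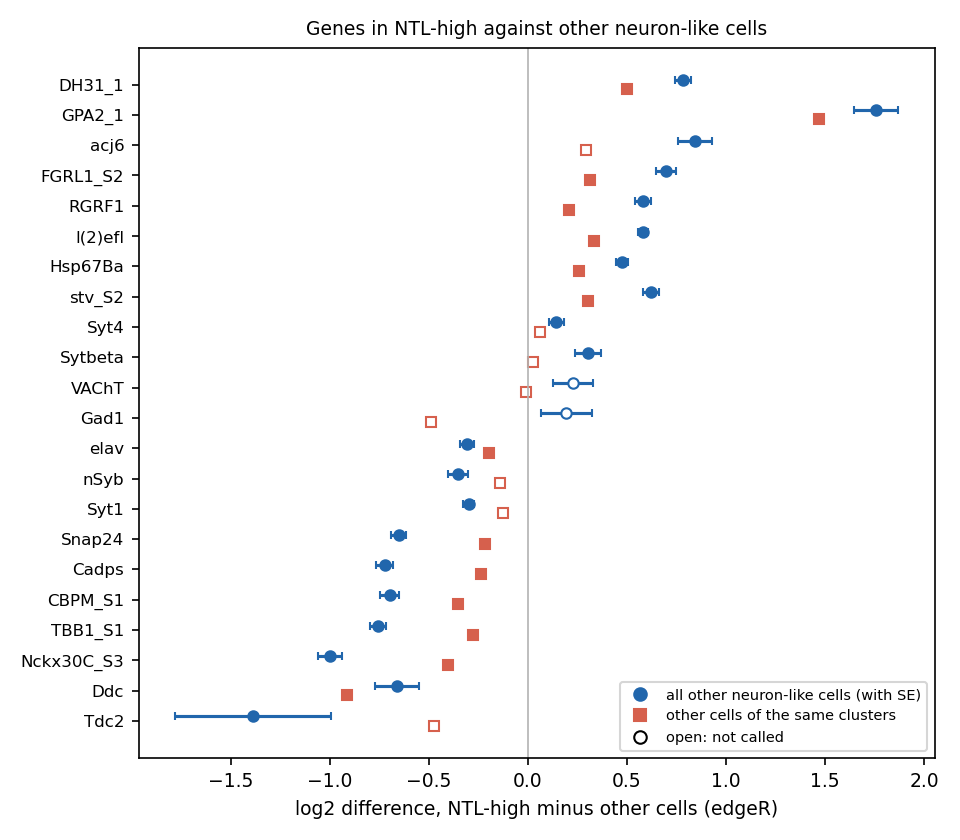
Log2 difference of the summed level between NTL-high and other neuron-like cells for selected genes, against all other cells (circles, with SE) and against other cells of the same clusters (squares). *GPA2_1* moves from 1.76 to 1.47 and *DH31_1* from 0.78 to 0.50, while *acj6* moves from 0.84 to 0.29 and *Cadps* from -0.72 to -0.24.

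The genes whose levels followed NTL over the 39 clusters, out of 9557 compared, were led by evm.TU.CTG-921.11 (Pearson r = 0.94), *BMP1*, a metalloprotease (0.93), *Nrt_S1*, named for the adhesion protein neurotactin (0.92), evm.TU.CTG-1617.13 (0.92) and *Rgk3*, a small GTPase (0.92). Evm.TU.CTG-1554.9, evm.TU.CTG-1568.12, evm.TU.CTG-157.5, *RGRF1* and *TM14C_S2* followed, at 0.91 to 0.92. These clusters include non-neuronal ones at low NTL, and over the 26 neuron-like clusters alone the same 10 genes had r between 0.69 and 0.86. The closest precursors were *DH31_1* (0.89), *KYMGLa* (0.86) and *EFLa* (0.86), and over the neuron-like clusters *KYMGLa* (0.74), *Dsk* (0.74) and *DH31_1* (0.70), with *EFLa* at 0.61. All points share the same libraries, depth and cluster assignment, and the values are a description.

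On its contig NTL stood alone in level. The nearest numbered gene models in the table, evm.TU.CTG-1364.56 and evm.TU.CTG-1364.62, had 70.4 ± 6.3 and 27.4 ± 6.7 CPM (SD, n = 5). Both were called higher in NTL-high cells, by 0.21 (edgeR adjusted p = 0.0312) and by 0.39 (edgeR adjusted p = 0.00232), but neither after thinning or within clusters. Positions and strands were not used here, so whether reads of NTL reach these models could not be examined.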

How the data were processed

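Brains of adult spiders were profiled in 5 single-cell libraries. The authors counted UMIs per gene and barcode with Cell Ranger against their own genome, and the deposited values are raw counts. Cells with 500 to 60000 UMIs, at least 200 genes, above 0.7 for log genes over log UMIs and under 40% mitochondrial UMIs were kept (11353727 to 34543696 UMIs a library). Cells were clustered anew (Leiden, resolution 2, 2000 variable genes, 40 components, in Python 3.11.15, scikit-learn 1.9.0 and leidenalg 0.10.2), since the authors' annotation was not used here. The variable genes left out the 71 precursors and the mitochondrial genes. A cluster was neuron-like from 400 CPM of *elav*, with at least 3 neuron markers detected and at most 1 marker of any other class enriched 4-fold. Another class needed at least 2 of its markers enriched, more than any other class, 3 detected and *elav* under 500 CPM, with clusters of low *elav* judged together where they shared 3 leading genes. The rest, and clusters whose median depth was under 33.3% of that of their libraries with no own marker leading, stayed unnamed. This rule was set after markers were seen. Doublets, the top 6% by similarity to simulated doublets, were kept and left out as an alternative. CPM are UMIs for each 1000000 UMIs of the same cells.

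UMIs were summed per library and tested in edgeR 4.0.16 under R 4.3.3 (its quasi-likelihood test after filterByExpr and TMM scaling, at an adjusted p of 0.05), with DESeq2 1.42.0 as an alternative. NTL was left out of the comparison that it defined. P-values of the sex comparisons measure the spread between pools. Those of the NTL-high comparison, with library as a block, measure how far the difference within a library varies between pools. On simulated counts of the NTL-high comparison edgeR recovered 178 of 200 changed genes, with 16 false calls among 11878. The members and lists were chosen with earlier results of these data known. Named genes were the 10 with the smallest p in each direction that had a name and 1 direction in all libraries, at most 2 without a name, the 10 precursors with the smallest p, the fixed lists, TK, contig neighbours and the 10 genes most like NTL.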

Additional observations from a re-analysis of the deposited data

How the results depend on the processing

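The log2 sex difference of NTL kept its sign and was not called under any alternative run, ranging from -0.70 to -0.18 over all kept cells and from -0.66 to -0.16 in neuron-like cells when 1 library was left out. Replicate numbers are shared between the sexes for only 2 pairs, whose deviations correlated at 0.08, so they do not pair the libraries. With a replicate block NTL was at -0.54 and 4 other precursors were called between the sexes, against 0 without it, 2 with DESeq2 and 0 to 1 when a library was left out (1 without male replicate 1). The sex difference in the share of NTL-high cells ran from -2.55 to -0.38 points without 1 library and was -2.26 at a mitochondrial limit of 20%. Genes called between NTL-high and other cells numbered 1221, and 13 with no library block, 502 thinned to 2000 UMIs, 105 against other cells from the same clusters and 811 to 1159 without 1 library (811 without male replicate 1). Precursors called were 35, and 3, 33, 21 and 26 to 36 in that order. DESeq2's scaling in edgeR moved the share of higher calls from 35.8% to 42.4%. *VAChT* turned to -0.0087 against the same clusters, and *Gad1* to -0.49 there and to -0.24 with NTL-high from 20 UMIs. Neither was called in these settings, while *VAChT* was called higher with NTL-high from 3 UMIs. The neuron-like over hemocyte-like log2 ratio was 4.25, ran from 3.71 to 4.93 without 1 library and was 3.36 at Leiden resolution 1, where female replicate 3 fell from 83.6-fold to 8.66-fold. The share of cells with an NTL UMI ran from 16.3% to 18.6% without 1 library. Of 456 values for 33 named genes, 413 kept direction and side of the threshold. The cause of these changes was not tested, other than that fewer cells or libraries entered.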

Other observations

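The gene evm.TU.CTG-1669.22 was higher in NTL-high cells by 5.68 on the log2 scale in sums (edgeR adjusted p = 9.11e-06), chosen for mention after its values were seen. It reached 10 UMIs in 5 NTL-high and 6 other neuron-like cells, and 1 cell held 3193 of its 5155 neuron-like UMIs. It was higher in 3 of 5 libraries.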
